A study of Mus musculus with 20 samples.

Results

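Thyroid hormone handling was followed through 9 genes chosen by name: Dio2, Slco1c1, Thra, Thrb, Crym, Trh, Trhde, Hr and Klf9. They were taken from 18704 genes that had a probe set with a single gene symbol. Each was measured by 1 probe set, so isoforms of a gene were not told apart. All 9 passed the filter on dim genes, a mean log2 intensity of at least 7.07 over the 20 arrays, which left 14028 genes to test. The arrays, Affymetrix Mouse Gene 1.0 ST, carried RNA from the hypothalamus of male C57BL/6J mice. From 4 weeks of age these mice ate a diet with 45% fat for 16 weeks, and they were obese in every group. They received intraperitoneal injections of dimethyl sulfoxide (DMSO), the solvent and vehicle, at 25 µl per day, or of celastrol, a plant triterpenoid, and were sampled after 6 h, 1 day or 4 days. The labels state a celastrol dose of 250 µg/kg beside the 6 h time. Each DMSO group had 3 arrays. The celastrol groups had 4 arrays at the first and second time and 3 at the last. The labels call the arrays biological replicates and do not say whether a replicate was 1 mouse or a pool. All groups were obese and injected, and no lean or uninjected group was analysed here.

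In a principal component analysis of the deviations from the group means, DMSO replicate 3 of 6 h scored 11.4 and DMSO replicate 3 of 1 day 9.49, while the other 18 arrays scored -6.11 to 5.28. Both stood apart from their groups. The mean of 7 thalamus markers, a neighbouring region, was 10.11 to 10.57 on the 6 h DMSO arrays and 9.87 to 10.15 on all others. Markers of the labelled tissue were present: Hcrt averaged 12.61, Pmch 12.94 and Nkx2-1 9.68 on the log2 scale over the 20 arrays. Medians per array ran from 8.60 to 8.65, and the number of arrays limits the precision of every value. At 1 day they were 8.63, 8.65, 8.65 and 8.61 under celastrol and 8.61, 8.60 and 8.62 under DMSO.

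Thyroid hormone acts in the brain mainly as triiodothyronine, which binds nuclear receptors that switch target genes on or off. Most of it is made locally from thyroxine, which crosses the blood-brain barrier on transporters and is converted by type 2 deiodinase in glia, in the hypothalamus above all in tanycytes lining the floor of the ventricle. Neurons of the paraventricular nucleus release thyrotropin-releasing hormone, which drives the pituitary and thyroid and is held down by the hormone itself. The genes fall along that path: Slco1c1 encodes a thyroxine transporter of brain vessels and glia in rodents, Dio2 the activating deiodinase, Crym a cytosolic protein that binds triiodothyronine, Thra and Thrb the nuclear receptors, Hr and Klf9 transcription regulators that thyroid hormone induces in rodent brain, Trh the prohormone of thyrotropin-releasing hormone, and Trhde the membrane enzyme that degrades the peptide.

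On mouse build GRCm38.p6, RefSeq places Dio2 at chr12:90724552-90739038, Slco1c1 at chr6:141524354-141570177 and Crym at chr7:120186380-120201989. The receptors lie at chr11:98740776-98769006 for Thra and chr14:17659225-18040097 for Thrb. Hr lies at chr14:70554056-70573548, Klf9 at chr19:23141226-23168129, Trh at chr6:92242061-92244650 and Trhde at chr10:114398820-114802302. These are whole genes, from start to end of the transcribed unit, with exons, introns and untranslated ends.

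RefSeq promoter windows, from 250 bases before a start to 50 after it, matched 6 of the 9 genes with 7 windows. Thra, Crym and Hr were not matched. The windows of Dio2, Trh and Klf9 are printed because these genes had the 3 smallest p-values among the 9 at 1 day, and capitals mark the motifs found in them.
Dio2 (chr12:90738989-90739288, minus strand): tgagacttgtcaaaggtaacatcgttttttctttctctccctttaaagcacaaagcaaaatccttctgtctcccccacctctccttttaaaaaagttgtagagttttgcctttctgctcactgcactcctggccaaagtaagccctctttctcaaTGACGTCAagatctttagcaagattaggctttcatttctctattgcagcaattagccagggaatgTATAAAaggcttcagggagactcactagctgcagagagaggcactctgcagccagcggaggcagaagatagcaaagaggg
Trh (chr6:92244601-92244900, minus strand): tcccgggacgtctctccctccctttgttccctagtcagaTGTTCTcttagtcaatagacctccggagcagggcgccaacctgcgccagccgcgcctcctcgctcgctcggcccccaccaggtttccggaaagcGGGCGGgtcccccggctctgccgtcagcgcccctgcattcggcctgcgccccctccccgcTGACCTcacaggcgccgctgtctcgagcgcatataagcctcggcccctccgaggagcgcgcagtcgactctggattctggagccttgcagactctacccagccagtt
Klf9 (chr19:23140976-23141275, plus strand): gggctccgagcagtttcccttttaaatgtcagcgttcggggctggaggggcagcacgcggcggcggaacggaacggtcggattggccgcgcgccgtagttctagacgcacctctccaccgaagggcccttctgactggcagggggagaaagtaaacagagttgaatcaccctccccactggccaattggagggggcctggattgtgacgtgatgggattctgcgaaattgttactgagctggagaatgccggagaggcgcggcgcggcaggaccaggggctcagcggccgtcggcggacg

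For description, 5 motifs were searched on both strands: AGGTCA, the half-site of thyroid hormone and related nuclear receptors, AGAACA, a half-site of the glucocorticoid receptor, TGACGTCA, the cAMP response element, TATAAA, the TATA box, and CCGCCC, the GC box. No pair of them overlapped in the 3 windows. The Dio2 window held TGACGTCA at -95 and TATAAA at -30 from the start, which stand in capitals on its own strand. Of 32851 mouse promoter windows, 1.79% held TGACGTCA and 13.6% held TATAAA. The Trh window held 3 motifs, all on its opposite strand and therefore printed as reverse complements: AGGTCA at -57, CCGCCC at -117 and AGAACA at -211. These letters occurred in 16.3%, 35.7% and 19.0% of all windows. The Klf9 window held none of the 5 motifs. Its GC content was 63.3%, against 67.0% for Trh, 44.7% for Dio2 and a median of 52.7% over all windows. A match describes the letters of a window, and the arrays did not measure binding.

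**Figure D1:**
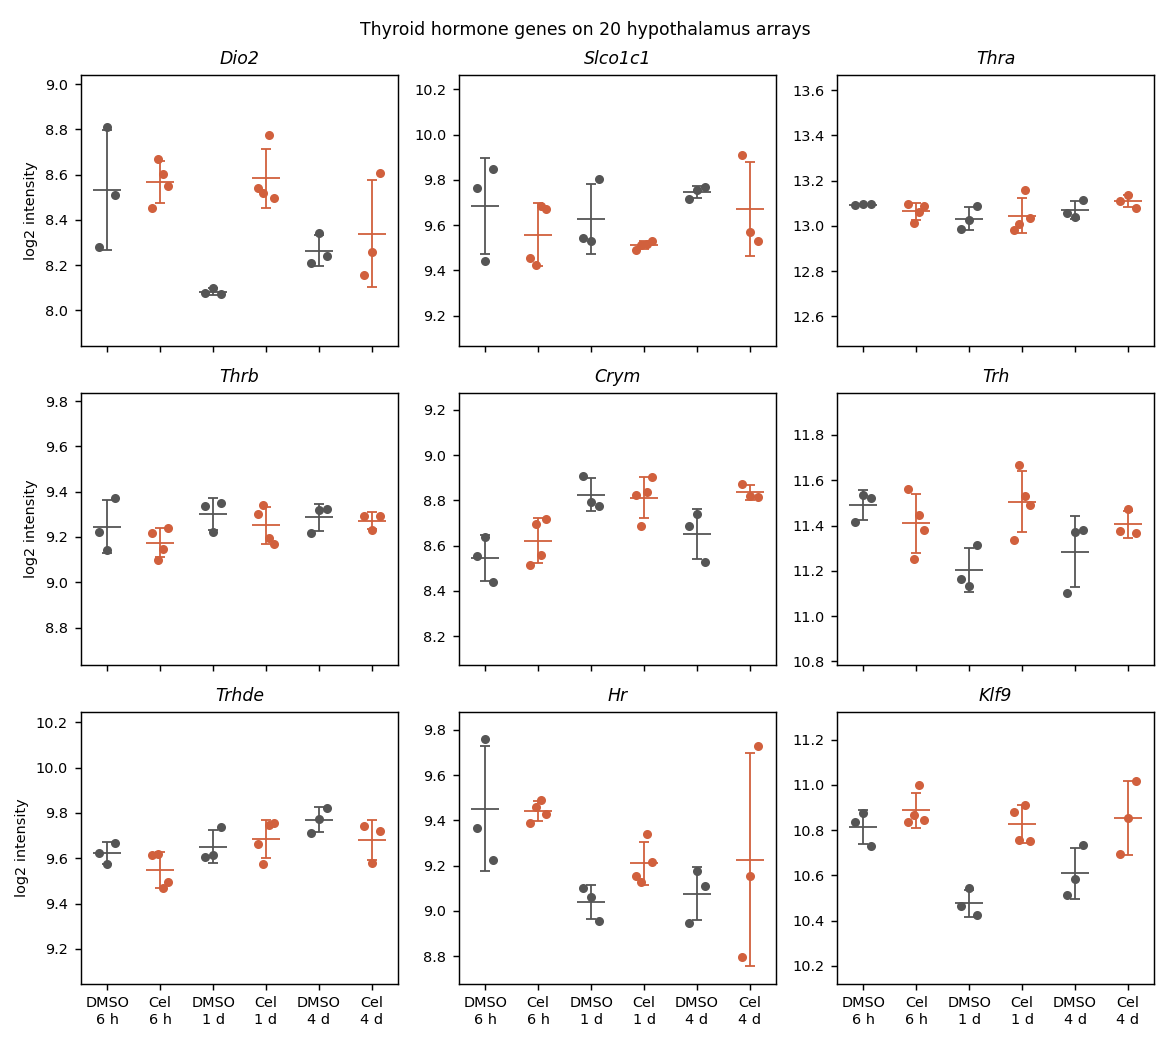
The log2 intensity (vertical axis) of each of the 9 genes is plotted for every array in the 6 groups, with horizontal marks for the mean and bars for the SD. Each panel spans the same 1.2 log2 units, and at 1 day all 4 celastrol arrays lie above all 3 DMSO arrays for Dio2, Trh, Hr and Klf9.

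After 1 day of celastrol, 2 of the 9 genes passed the test. Dio2, which makes the active hormone, was 1.41-fold higher and Klf9, which both thyroid hormone and glucocorticoids induce, 1.27-fold higher than under DMSO. Trh was 1.23-fold higher without passing the adjusted threshold, and both receptors differed little from DMSO. Over all genes tested, 60 or 0.428% passed at 1 day, against 2 of these 9.

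Dio2 read 8.08, 8.10 and 8.07 on the log2 scale on the 3 DMSO arrays at 1 day, and 8.54, 8.52, 8.78 and 8.50 on the 4 celastrol arrays. The groups did not overlap, the DMSO arrays were nearly equal, and celastrol replicate 3 was the highest. The log2 difference was 0.50 ± 0.11 (SE, 95% interval 0.28 to 0.72, limma adjusted p = 0.0416). In bulk tissue, more cells of a type and more RNA per cell cannot be told apart. The call rested on small margins. It held in 5 of 20 fits that each left out 1 array, in none of the 7 that left out an array of this time, and without both DMSO arrays that stood apart the difference was 0.49 with an adjusted p of 0.0939. Without celastrol replicate 3 it was 0.43, with an adjusted p of 0.167.

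Klf9, a Krüppel-like factor that both thyroid hormone and glucocorticoids induce, read 10.46, 10.54 and 10.43 under DMSO at 1 day and 10.88, 10.76, 10.91 and 10.75 under celastrol. All celastrol arrays lay above all DMSO arrays, with a gap wider than the spread within either group. The log2 difference was 0.35 ± 0.071 (SE, 95% interval 0.20 to 0.50, adjusted p = 0.0346). The call held in 14 of 20 fits with 1 array left out, in 1 of the 7 that left out an array of this time. Without both DMSO arrays that stood apart, the difference was 0.32 with an adjusted p of 0.0863.

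Hr, a corepressor that binds the thyroid hormone receptor and is itself induced by the hormone, read 9.10, 9.06 and 8.96 under DMSO at 1 day and 9.16, 9.13, 9.34 and 9.22 under celastrol. The groups did not overlap, but the nearest arrays of each were close together. Its log2 difference of 0.17 ± 0.15 (SE) had a 95% interval of -0.14 to 0.48 and an adjusted p of 0.812.

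Trh read 11.17, 11.13 and 11.31 under DMSO at 1 day and 11.34, 11.67, 11.53 and 11.49 under celastrol. The lowest celastrol array stood just above the highest DMSO array. The log2 difference was 0.30 ± 0.082 (SE, 95% interval 0.13 to 0.47), with an unadjusted p of 0.00162 and an adjusted p of 0.156. Trhde, whose product cleaves the released peptide, ranged from 9.60 to 9.74 under DMSO and from 9.58 to 9.76 under celastrol. Its difference was 0.034 ± 0.057 (SE, adjusted p = 0.928), with a 95% interval of -0.086 to 0.15.

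Neither receptor passed the test at 1 day. Thra ranged from 12.99 to 13.09 on DMSO arrays and from 12.98 to 13.16 on celastrol arrays, a log2 difference of 0.013 with a 95% interval of -0.077 to 0.10. Thrb ranged from 9.22 to 9.35 and from 9.17 to 9.34, a difference of -0.051 with an interval of -0.17 to 0.070. For both, the arrays of the groups overlapped, and the intervals leave room for changes of up to 0.17 in size. Crym, the hormone-binding protein of the cytosol, had a difference of -0.014 (interval -0.15 to 0.12). Slco1c1, the transporter, ranged from 9.53 to 9.80 under DMSO and from 9.49 to 9.53 under celastrol, a difference of -0.11 ± 0.098 (SE, adjusted p = 0.816). Its 4 celastrol arrays were nearly equal, and 3 of them lay below the lowest DMSO array.

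The arrays of the groups did not overlap at 1 day for 4 of the 9 genes, Dio2, Trh, Hr and Klf9, each with celastrol above. Over all genes tested 7.84% did not overlap at this time. The median log2 difference was 0.034 over the 9 genes, 6 higher and 3 lower, and 0.0066 over all genes. At an unadjusted p under 0.05, 3 of the 9 passed at 1 day, beside 1148 or 8.18% of all genes. Of the 60 genes called at 1 day 51 were higher, but 38 of 56 were once arrays were centred on their medians and 48 of 70 after a further quantile normalization.

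**Figure D2:**
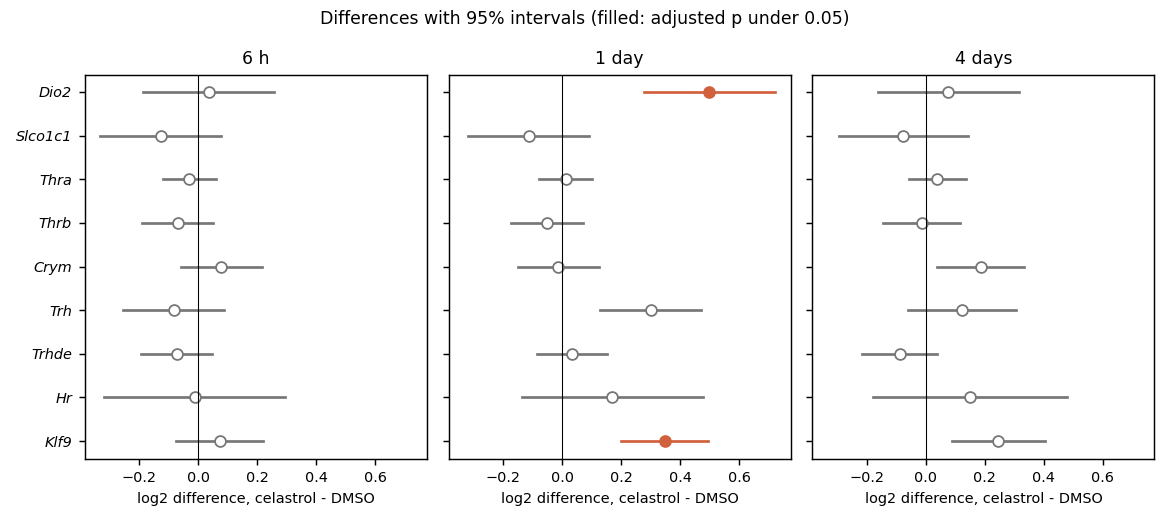
The log2 difference, celastrol minus DMSO, is plotted for each gene (rows) at 6 h, 1 day and 4 days, with 95% intervals as lines and filled points where the adjusted p was under 0.05. Only Dio2 (0.50) and Klf9 (0.35) at 1 day are filled, while the receptors Thra and Thrb lie within 0.070 of 0 at all 3 times.

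At 6 h, none of the 9 genes passed, and 0% of all genes tested did. At an unadjusted p under 0.05 there were 0 of the 9, beside 1057 or 7.53% of all genes. The differences ran from -0.13 for Slco1c1 to 0.078 for Crym, 3 higher and 6 lower, with a median of -0.031 against -0.015 over all genes. Dio2 read 8.28, 8.81 and 8.51 on the DMSO arrays and 8.45, 8.67, 8.60 and 8.55 on the celastrol arrays. The DMSO arrays spread on both sides of the celastrol arrays. Klf9 read 10.83, 10.88 and 10.73 under DMSO and 10.84, 10.87, 11.00 and 10.84 under celastrol. The groups overlapped for all 9 genes, while 6.3% of all genes did not overlap. Beside these values the thalamus markers were lower under celastrol in 7 of 7 genes, with a median of -0.31 and 0 past the threshold, and their part in the result was not tested.

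At 4 days, none of the 9 genes passed, while 0.0784% of all genes tested did. At an unadjusted p under 0.05 there were 2 of the 9, beside 921 or 6.57% of all genes. Klf9 read 10.51, 10.58 and 10.73 under DMSO and 10.69, 10.85 and 11.02 under celastrol, a log2 difference of 0.25 ± 0.076 (SE, adjusted p = 0.462). The lowest celastrol array fell below the highest DMSO array. Crym read 8.69, 8.74 and 8.53 under DMSO and 8.87, 8.82 and 8.81 under celastrol, a difference of 0.19 ± 0.070 (SE, adjusted p = 0.627). Crym was the 1 gene of the 9 whose arrays did not overlap at 4 days, where 14.4% of all genes did not overlap.

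Dio2 at 4 days read 8.21, 8.34 and 8.24 under DMSO and 8.16, 8.26 and 8.61 under celastrol. A single celastrol array was high and the other 2 lay within the DMSO range or just below it, and the difference was 0.076 ± 0.11 (SE, adjusted p = 0.969). Hr had the widest celastrol group, 8.80, 9.16 and 9.73, against 8.94, 9.18 and 9.11 under DMSO. The same array, celastrol replicate 3, was the highest of its group for Dio2, Hr and Klf9. Trh differed by 0.12, Slco1c1 by -0.077, Trhde by -0.090, Thra by 0.039 and Thrb by -0.015, all with adjusted p-values of 0.881 or more. The median over the 9 genes was 0.076, 6 higher and 3 lower, against 0.0078 over all genes.

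Averaged over the 3 times, Klf9 was the 1 gene of the 9 that passed, with a log2 difference of 0.22 ± 0.042 (SE, 95% interval 0.13 to 0.31, adjusted p = 0.0155), and 0.577% of all genes passed. It was called in all 20 fits with 1 array left out, with adjusted p-values of 0.00262 to 0.0494. Without both DMSO arrays that stood apart the difference was 0.20 with an adjusted p of 0.0685. Dio2 averaged 0.20 ± 0.063 (SE, adjusted p = 0.218), and was called in 1 of the 20 fits, the one without DMSO replicate 2 at 6 h, with an adjusted p of 0.0355. Trh averaged 0.11 (adjusted p = 0.493) and Crym 0.083 (adjusted p = 0.549).

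Whether the effect of celastrol differed between times was tested directly. The effect on Dio2 was larger at 1 day than at 6 h by 0.46 ± 0.15 (SE), with an unadjusted p of 0.00613 and an adjusted p of 0.402. For Trh this difference was 0.38 ± 0.12 (SE, adjusted p = 0.368) and for Klf9 0.28 ± 0.10 (SE, adjusted p = 0.425). From 1 day to 4 days the effect on Dio2 changed by -0.42 ± 0.16 (SE, adjusted p = 1.00). None of the 9 genes passed in these tests, where 0.00713% of all genes passed for 1 day against 6 h, 0.00713% for 4 days against 1 day and 0.0143% for 4 days against 6 h. At an unadjusted p under 0.05 there were 3, 1 and 0 of the 9, beside 10.2%, 2.48% and 7.68% of all genes. The times are therefore given side by side, and the test did not separate them for any of the 9 genes.

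The DMSO means of some of these genes differed between the times, though none of the 9 passed in the tests given below. These are the same arrays that the celastrol groups were set against. Dio2 averaged 8.53 ± 0.27 (SD, n = 3) under DMSO at 6 h, 8.08 ± 0.014 (SD, n = 3) at 1 day and 8.26 ± 0.068 (SD, n = 3) at 4 days. Under celastrol it averaged 8.57 ± 0.092 (SD, n = 4), 8.58 ± 0.13 (SD, n = 4) and 8.34 ± 0.24 (SD, n = 3). The DMSO mean at 1 day was the lowest of the 6 groups, and the celastrol mean at 1 day was near both 6 h means.

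Klf9 followed the same order under DMSO, 10.81 ± 0.075 (SD, n = 3) at 6 h, 10.48 ± 0.060 (SD, n = 3) at 1 day and 10.61 ± 0.11 (SD, n = 3) at 4 days. Its celastrol means were 10.89 ± 0.077 (SD, n = 4), 10.83 ± 0.083 (SD, n = 4) and 10.85 ± 0.16 (SD, n = 3). Its 3 celastrol means differed by less than the SD of the 4 day group.

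Set against the later DMSO arrays together, DMSO at 6 h was higher for Klf9 by 0.27 ± 0.066 (SE, adjusted p = 0.0755), for Dio2 by 0.36 ± 0.099 (SE, adjusted p = 0.119), for Hr by 0.39 ± 0.14 (SE, adjusted p = 0.218) and for Trh by 0.25 ± 0.076 (SE, adjusted p = 0.174). Crym was lower by the same comparison, -0.19 ± 0.061 (SE, adjusted p = 0.186). None of the 9 passed, while 0.47% of all genes did. At an unadjusted p under 0.05 there were 5 of the 9, beside 1751 or 12.5% of all genes. Thalamus markers were higher in 6 of 7 genes on these 6 h DMSO arrays, 2 of them past the threshold, with a median of 0.34. The 15 tested genes that glucocorticoids induce, taken up below, were all higher, 4 of them past the threshold, with a median of 0.435. The part of either list in the result was not tested.

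Under celastrol, 6 h against the later times gave 0 of the 9 genes and 0.841% of all genes. At an unadjusted p under 0.05 there were 2 of the 9, beside 3050 or 21.7% of all genes. Crym read 8.52, 8.70, 8.56 and 8.72 at 6 h, 8.82, 8.69, 8.84 and 8.90 at 1 day and 8.87, 8.82 and 8.81 at 4 days. The 6 h arrays were the lower ones, with 1 later array inside their range, a log2 difference of -0.20 ± 0.054 (SE, adjusted p = 0.0613). Without the DMSO arrays that stood apart it passed, with an adjusted p of 0.0372, as did 740 of all genes. With all arrays 118 of all genes passed. Trhde differed by -0.13 ± 0.047 (SE, adjusted p = 0.120).

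Between 4 days and 1 day, none of the 9 genes passed under DMSO, where 0% of all genes did, or under celastrol, where 0.0356% did. Each comparison had 1 of the 9 at an unadjusted p under 0.05, Crym under DMSO with -0.17 ± 0.070 (SE, adjusted p = 0.602) and Dio2 under celastrol with -0.24 ± 0.11 (SE, adjusted p = 0.373). Over all genes there were 1031 or 7.35% under DMSO and 1704 or 12.1% under celastrol.

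**Figure D3:**
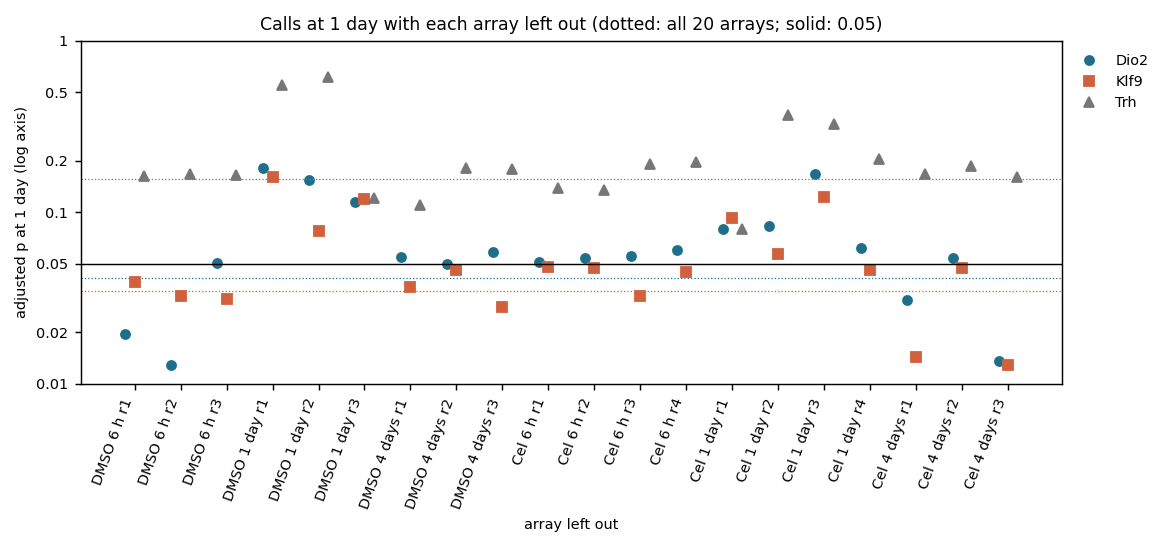
The adjusted p at 1 day (log axis) of Dio2, Klf9 and Trh is plotted for the fit without each of the 20 arrays in turn, with dotted lines for all arrays and a solid line at 0.05. Klf9 stays under the line in 14 fits and Dio2 in 5, Trh in none, and leaving out an array of the 1 day groups raises Dio2 above the line in all 7 cases.

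The rest of the thyroid hormone pathway was followed in 55 further genes in 6 groups by role, of which 43 were tested. At 1 day 25 were higher and 18 lower under celastrol, with a median of 0.010, and 1 passed the test. At 6 h 15 were higher and 28 lower (median -0.017), and at 4 days 24 and 19 (median 0.022), with 0 past the threshold at either time. The medians over all genes at the 3 times, -0.015, 0.0066 and 0.0078, had the same signs and were smaller, most clearly at 4 days.

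The 1 that passed was Sult1a1, a sulfotransferase that inactivates phenols and iodothyronines. It averaged 8.32 ± 0.12 (SD, n = 3) under DMSO at 1 day and 9.03 ± 0.22 (SD, n = 4) under celastrol, a log2 difference of 0.70 ± 0.15 (SE, adjusted p = 0.0418). The groups did not overlap, with 8.45 as the highest DMSO array and 8.80 as the lowest celastrol array. The call held in 8 of 20 fits with 1 array left out and had an adjusted p of 0.0967 without both DMSO arrays that stood apart. Like Dio2, Sult1a1 was lowest under DMSO at 1 day and stood at 8.95 ± 0.27 (SD, n = 3) under DMSO at 6 h. Of the other genes of hormone breakdown, Dio1 and Dio3, the other deiodinases, averaged 6.08 and 6.43 and were too dim to test, as was Iyd. Secisbp2, which helps to build selenium into deiodinases, differed by -0.0092 at 1 day.

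Of 10 transport and binding genes 7 were tested, 3 higher and 4 lower at 1 day with a median of -0.011. Slco4a1, an organic anion transporter, had the smallest p of them, 0.21 ± 0.085 (SE, adjusted p = 0.462). At 6 h the amino acid transporter Slc7a5, which also carries thyroid hormone, differed by -0.15 ± 0.059 (SE, adjusted p = 0.634) and the vessel transporter Slco1a4 by -0.24 ± 0.10 (SE, adjusted p = 0.652). Ttr, the thyroxine carrier made by choroid plexus, differed by -0.23 ± 0.11 (SE, adjusted p = 0.761) at 4 days.

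Among 10 tested partners of the receptors, the retinoid X receptors and cofactors, 8 were higher at 1 day with a median of 0.035 and 10 at 4 days with a median of 0.041. No partner passed at any time, and Rxra at 1 day, 0.13 ± 0.059 (SE, adjusted p = 0.586), was the largest difference among them on the higher side. In the central axis, 9 of 11 genes were tested and 6 were higher at 1 day, with a median of 0.010. Trhr2, a receptor for thyrotropin-releasing hormone, differed by 0.19 ± 0.061 (SE, adjusted p = 0.581) at 6 h. Cga, the pituitary hormone subunit shared by thyrotropin, ranged from 7.20 to 11.18 over the 20 arrays, and at 4 days differed by -1.57 ± 1.03 (SE, adjusted p = 0.873). Its SD within the 6 groups ran from 1.29 to 1.70.

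Genes known to answer to thyroid hormone in rodent brain were split in direction. Of those the hormone raises, 9 were tested and 4 were higher and 5 lower at 1 day, with a median of -0.0009. Of those it lowers, 6 were tested and 3 were higher and 3 lower, with a median of 0.0043. None of them passed at any of the 3 times. The circadian factor Dbp had a difference of 0.094 ± 0.088 (SE, adjusted p = 0.830) and Nefh, a neurofilament, -0.067 ± 0.048 (SE, adjusted p = 0.759) at 1 day. Cirbp, a cold-induced RNA-binding protein in the lowered group, differed by 0.22 ± 0.075 (SE, adjusted p = 0.538) at 4 days.

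**Figure D4:**
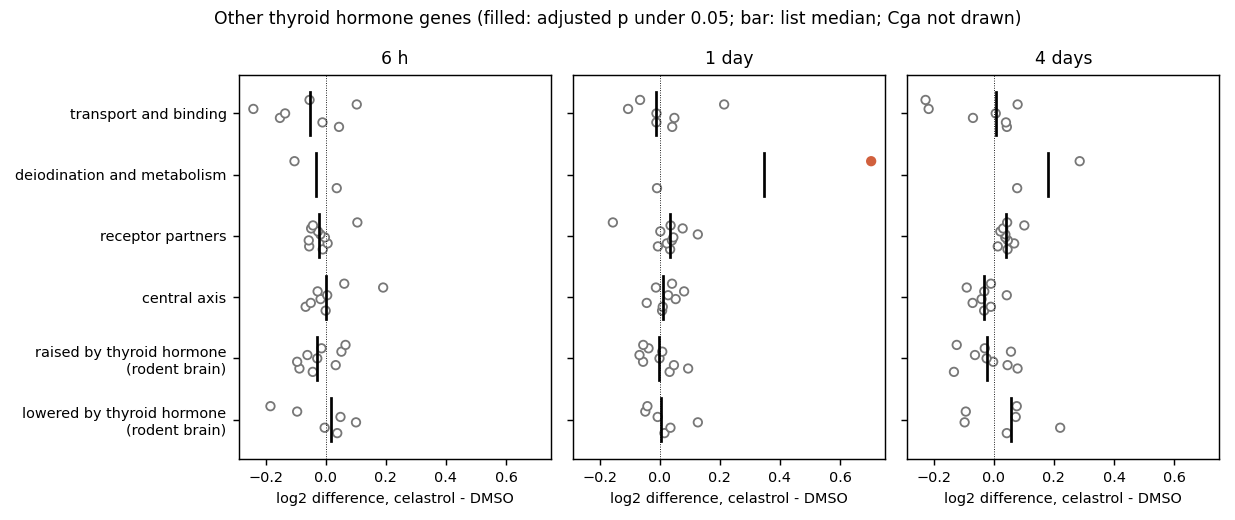
The log2 difference, celastrol minus DMSO, of further thyroid hormone genes is plotted by group at 6 h, 1 day and 4 days, 1 point per gene, with a bar at the median of each group and Cga, which lies beyond the axis at 1 day and 4 days, left out of the points. Sult1a1 at 1 day (0.70) is the 1 filled point, and the bars of most groups lie close to 0.

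Beside Dio2 and Klf9, genes that glucocorticoids induce were higher on the same arrays. Of 15 such genes tested, which an earlier look at these data had already singled out, all 15 were higher under celastrol at 1 day and 8 passed, with a median of 0.68. The mean of their log2 values ran from 9.98 to 10.08 on the 1 day DMSO arrays and from 10.54 to 10.68 on the 1 day celastrol arrays, without overlap. It ran from 10.25 to 10.69 under DMSO and 10.44 to 10.59 under celastrol at 6 h. The ranges at 4 days were 9.94 to 10.13 and 10.18 to 10.80, also without overlap. At 6 h 12 of the 15 were higher and 3 lower, with 0 past the threshold. At 4 days all 15 were higher and 3 passed, with a median of 0.36. Klf9, 1 of the 9 genes, is also a glucocorticoid target, and the part of the 15 genes in the results for the 9 was not tested.

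**Figure D5:**
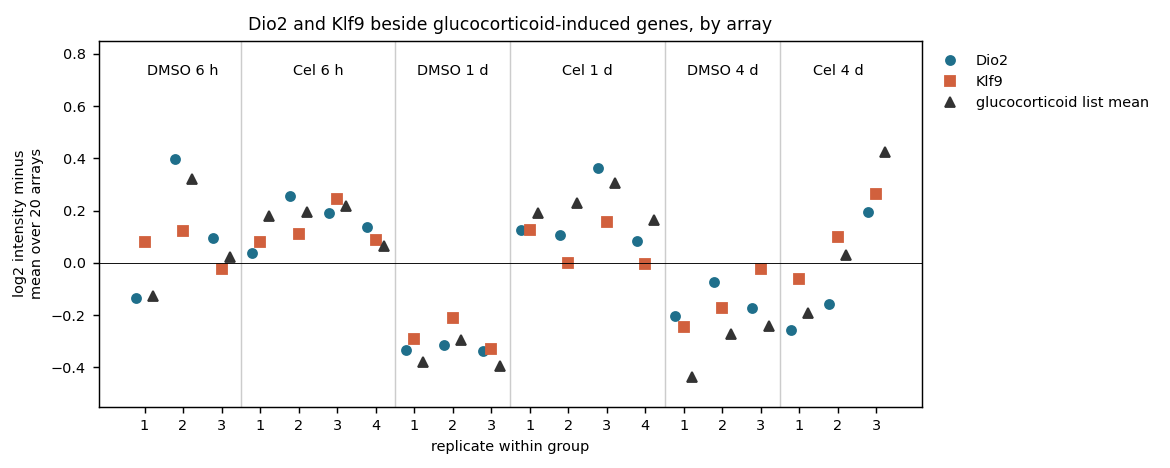
For each of the 20 arrays, by group and replicate, Dio2 (circles), Klf9 (squares) and the mean of 15 glucocorticoid-induced genes (triangles) are plotted as log2 intensity minus their own mean over the arrays. All 3 are below 0 on the 3 DMSO arrays at 1 day and at or above 0, to within 0.01, on the 4 celastrol arrays at 1 day.

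Predicted genes, with Gm, LOC or Rik symbols, were left out of the search for genes of like pattern. Among the others, Tsc22d3, F3 and Dclre1b had the pattern most like Dio2 over the 20 arrays, in that order. Tsc22d3 is a leucine zipper protein that glucocorticoids induce and a member of the 15, F3 is tissue factor and Dclre1b a DNA repair nuclease. The root mean square difference of their centred log2 values from those of Dio2 was 0.0888, 0.109 and 0.111, against a median of 0.240 over genes. At 1 day the log2 difference was 0.61 for Tsc22d3, 0.52 for F3 and 0.32 for Dclre1b. The 1 day arrays were among those used to choose these genes, so these differences are a description and carry no test. Most like Klf9 were Csrnp1, a nuclear protein, Bcl2l1, which opposes cell death, and Arrdc3, an arrestin-like adaptor, at 0.0720, 0.0758 and 0.0768 against a median of 0.188. At 1 day the log2 differences of these genes, which were chosen in the same way, were 0.30 for Csrnp1, 0.24 for Bcl2l1 and 0.29 for Arrdc3.

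Markers of the cells that carry these genes were read on the same arrays. Of tanycyte markers 8 of 11 were tested, 6 higher and 2 lower at 1 day with a median of 0.058 and 0 past the threshold. Their mean ran from 9.33 to 9.44 under DMSO and from 9.38 to 9.43 under celastrol, and these ranges overlapped. Ependymal markers, from the ciliated lining of the ventricle, were higher in 6 of 6 tested genes (median 0.087), and their mean ran from 8.635 to 8.695 under DMSO and from 8.700 to 8.801 under celastrol, without overlap. Astrocyte markers were lower in 6 of 9, with Sox9, a glial transcription factor, at a log2 difference of -0.24 (adjusted p = 0.0470), and their mean ran from 11.01 to 11.08 under DMSO and from 10.96 to 11.00 under celastrol, also without overlap. The part of tanycyte, ependymal and astrocyte markers in the Dio2 result was not tested.

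Endothelial markers, of the vessels where Slco1c1 is expressed in rodents, were higher in 7 of 10 at 1 day. The glucose transporter Slc2a1 differed by 0.48 (adjusted p = 0.0201) and the junction protein Cldn5 by -0.61 (adjusted p = 0.00839), in opposite directions, and Slco1c1 itself did not pass. Markers of the paraventricular nucleus, where Trh neurons lie, were higher in 5 of 6 at 1 day with a median of 0.080 and 0 past the threshold. Their mean ran from 10.29 to 10.54 under DMSO and from 10.27 to 10.65 under celastrol, which overlapped, and their part in the Trh result was not tested. Of pituitary markers 4 of 7 were tested and all 4 were lower at 1 day, with a median of -0.32 and 0 past the threshold. Their mean at 1 day ran from 8.28 to 8.93 under DMSO and from 7.91 to 8.74 under celastrol, which overlapped. All 4 were higher at 6 h (median 0.074) and lower at 4 days (median -0.18), and their part in the results was not tested.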

How the data were processed

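Log2 intensities of 23492 probe sets on 20 arrays were used as the authors deposited them, and RMA, which corrects background, quantile normalizes and summarises probe sets, is named in the submitters' processing notes without a version. The labels' protocols give Trizol extraction, column cleanup and biotin labelling, and name no batch or date, so no batch term could be fitted. RMA log2 values tend to understate differences of dim genes, and quantile normalization gives all arrays nearly the same distribution.

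Platform annotation gave 1 symbol to 20228 probe sets, several to 1399 and none to 1865, and 20182 of the first matched the RefSeq table by Entrez ID. The brightest probe set by mean over the 20 arrays stood for a gene, and genes under the 25th percentile of mean intensity were left out. Differences were fitted on all 14028 remaining genes with limma 3.58.1 in R 4.3.3, a mean for each of 6 groups and eBayes (14 residual and 4.95 prior degrees of freedom). P-values are two-sided, and adjusted ones are limma's with the Benjamini-Hochberg adjustment over all genes tested, with a threshold of 0.05. The procedure was tested on simulated data.

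The members, the further gene lists and the alternatives were chosen with earlier results of these data known. Named are the 9 genes and the 3 genes most alike each called member, predicted genes aside. In each further list, the genes past the threshold and up to 3 with the smallest p are named. From those up to 3, the text gives some as examples. Alternatives were another filter or none, array centring, renewed quantile normalization, the mean of probe sets, each time alone, array weights, an intensity trend, the replicate number as a block, and arrays left out. The labels do not say whether replicate numbers pair samples across groups, and they were not read as pairs. The hypothalamus marker list held the symbol Sf1, which names a splicing factor, and that list is not used for a result.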

Additional observations from a re-analysis of the deposited data

Results flagged for a closer look

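Dio2 on celastrol replicate 3 at 1 day read 8.78, far from the other 3 arrays of its group at 8.50 to 8.54. The gap to the nearest array was 0.842 of the range of the group, above the critical value of 0.829 for 4 arrays. In all, 18 groups of 4 arrays were examined and 1 such value was found, where chance gives about 1 in 20. Without this array the Dio2 difference at 1 day was 0.43, with an adjusted p of 0.167.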

How the results depend on the processing

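Each of 27 member differences was recomputed under 30 alternatives, 10 of them other than leaving out 1 array, and 763 of 807 values kept their direction and side of the threshold. At 1 day, where 2 of the 9 genes passed, the count was 0 with no filter, 0 with arrays centred on their medians, 0 without both DMSO arrays that stood apart and 1 with a filter at the 50th percentile, where Dio2 was too dim to be tested. Leaving out 1 array gave counts of 0 to 2. The adjusted p of Dio2 was 0.0614, 0.0515 and 0.0939 in the first 3 of these and that of Klf9 0.0550, 0.0506 and 0.0863. Trh passed with array weights alone, at 0.36 with an adjusted p of 0.0268, and stayed above the threshold, up to 0.613, with 1 array left out. Averaged over the times the count of 1 became 0 without both DMSO arrays that stood apart and 1 to 2 with 1 array left out. For DMSO at 6 h against later DMSO the count of 0 became 1 with the 50th percentile filter and 1 with the intensity trend, Klf9 each time, and 0 to 1 with 1 array left out. For celastrol at 6 h against later celastrol it became 1 with the 50th percentile filter, 1 with array weights, 1 with the replicate block (adjusted p = 0.0446) and 1 without both DMSO arrays that stood apart, Crym each time, and 0 to 1 with 1 array left out. With that filter, the weights, the block and without both DMSO arrays, 388, 619, 300 and 740 of all genes passed, against 118 in the main fit. Without both DMSO arrays the Crym difference stayed at -0.20, with an SE of 0.052 against 0.054. Those arrays enter this comparison only through the estimate of spread that all groups share. Why the spread differed, and the cause of the other moves, were not tested.

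Signs turned for 8 differences, none of them past the threshold under any setting. At 6 h Dio2 became -0.042 with array weights and ran from -0.091 to 0.17 with 1 array left out, and Hr became 0.015 with quantile normalization and ran from -0.12 to 0.14. At 1 day Thra became -0.0083 with centring and ran from -0.024 to 0.040, Thrb became 0.0046 with array weights, and Crym ran from -0.044 to 0.028. At 4 days Dio2 ran from -0.058 to 0.17, Thrb from -0.049 to 0.0065 and Hr from -0.10 to 0.37.

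Over all genes the 60 calls at 1 day became 18 to 87 with 1 array left out and 191 with array weights, the 81 averaged calls 40 to 160 over all settings, the 11 at 4 days 0 to 23, the 66 for DMSO at 6 h 1 to 119 and the 118 for celastrol at 6 h 6 to 740. DMSO at 4 days against 1 day went from 0 to as many as 132, and celastrol from 5 to between 1 and 16. The replicate block left Dio2 at 0.52 (adjusted p = 0.0263) and Klf9 at 0.37 (adjusted p = 0.0270) at 1 day. Correlations of the deviations of same-numbered arrays in different groups had a median of 0.009 and a maximum of 0.516 over 46 pairs. Of these, 13 exceeded 0.1. Arrays with different numbers had a median of -0.009 and a maximum of 0.409 over 120 pairs, and 26 exceeded 0.1. The numbers were not read as pairs, and these values cannot show whether they were. Groups of 3 or 4 arrays limit the precision, and signal near the filter limits what dim genes such as Dio1 and Dio3 can show.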
